A study of Rattus norvegicus with 8 samples.

Results

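Synaptic vesicle fusion machinery was examined in the rat hypothalamus through 60 protein-coding genes, which held 605 of the 73922 polyadenylation sites and were 60 of the 12255 genes in the table. A gene was a member where its symbol began with Syt, Stx, Stxbp, Snap, Vamp, Cplx, Unc13, Rims or Sv2, followed at once by a digit or a letter a to d. Snapc genes were left out, and Syn1, Syn2, Syn3, Syp, Nsf, Napa and Napb were members too. The reads of all sites of a gene were summed. Symbols chose the members, and no measured value did. Snap91 entered by its name alone, since it encodes a clathrin adaptor and not a SNARE protein, and it is kept apart here. Whole transcriptome termini site sequencing (WTTS-seq), which counts the 3′ ends of polyadenylated RNA, was run on total RNA of whole hypothalamus. The rats were adult male Long-Evans animals without a genetic change, 4 with diet-induced obesity after free access to a high fat diet and 4 controls on standard chow, and tissue was taken after 36 days. Each library came from one rat, and both groups carry the numbers 1 to 4.

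Neurotransmitter release needs the vesicle protein synaptobrevin (Vamp) to zip together with syntaxin (Stx) and SNAP-25 of the plasma membrane into a SNARE complex that pulls the membranes together. Munc13 (Unc13) and RIM proteins dock and prime the vesicle, complexins hold the primed complex, and synaptotagmins with calcium-binding C2 domains trigger fusion when calcium enters. NSF with its SNAP adaptors (Napa, Napb) then takes the spent complexes apart. Neurons of the hypothalamus use this machinery for fast transmitters and related proteins for peptide release.

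The libraries held 1417531 to 1957726 reads, of which 1230658 to 1661045 lay at sites with a gene and 12139 to 20126 at sites of the members. Sites without a read numbered 14788 in control library 1 and 10659 in obesity library 1, and 4062 to 6622 elsewhere. All 8 hypothalamic marker genes looked up (among them Avp, Oxt, Pmch and Hcrt) were detected. The share of gene reads that fell on members was 1.05% ± 0.135 among controls and 1.03% ± 0.154 among obese rats (SD, n = 4), which differed by less than the spread within either group. Counts of 3′ ends are not scaled to transcript length, so shares of reads order the genes by reads and not by level.

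Among the members with the most reads were parts of the calcium-triggered SNARE core. Syt11, a synaptotagmin that does not bind calcium, held 10.6% of the members' reads. Vamp2, the main synaptobrevin of brain synapses, held 9.08%, Snap25 held 8.32%, the fast calcium sensor Syt1 held 7.21% and Syt4 held 4.56%. At the other end, Stx17, Stx2, Stx18 and Rims3 had 61 to 81 reads over all 8 libraries.

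The members were read at many positions per gene. Their median was 5 sites against 3 over 10746 protein-coding genes, and 20 of 60 (33.3%) had 10 or more sites against 14.1% of protein-coding genes. The lowest site total in the table was 30 reads, and these counts of sites were not matched for reads or gene length. The extreme was Syt1 on chromosome 7 (minus strand, Rnor_6.0, 50084409 to 50638651), with 86 sites, none of which held more than 6.96% of its reads. Rims2, a RIM scaffold of the active zone, had 44 sites, and Rims1 had 31. Snap23 and Vamp7 had 1 site each. Snap25 and Vamp2 were concentrated instead: the most 3′ Snap25 site (chromosome 3, plus strand, 129788390 to 129788431) held 76.7% of its reads, and the most 3′ Vamp2 site (chromosome 10, plus strand, 55679337 to 55679418) held 88.3%. With sites of both strands ordered together, the most abundant site was also the most 3′ site in 25 of 60 members. These include Snap23 and Vamp7 with 1 site each, and over the 58 members with 2 or more sites it was so in 23. Sites were not classed here as exonic, intronic or UTR. A-rich stretches of the genome at the sites were not checked either, so priming inside a transcript was not told apart from a true 3′ end. For 20 members (33.3%, against 16.9% of protein-coding genes, again not matched for reads) sites lay on both strands, and reads on the minority strand cannot be assigned to the member with certainty.

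The first question was whether the summed reads of any member differed between obesity and control. None of the 60 passed an adjusted p of 0.1 in the quasi-likelihood test of edgeR, and the background was 0% of 12255 genes. The DESeq2 Wald test called 0 members as well, against 0.0245% of genes. At an unadjusted p under 0.05 there were 3 members (5%), against 5.3% of all genes. Rims3 and Sv2c were lower in obesity and Syn3 was higher, where 2.52% and 2.77% of genes were. By the DESeq2 test 4 members lay under that level, 2 higher and 2 lower (backgrounds 3.27% and 2.78%). The median log2 fold change was 0.03 over the members and 0.01 over all genes, with 32 members above 0 and 28 below. In bulk tissue, fewer cells of a type and less RNA per cell cannot be told apart.

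**Figure D1:**
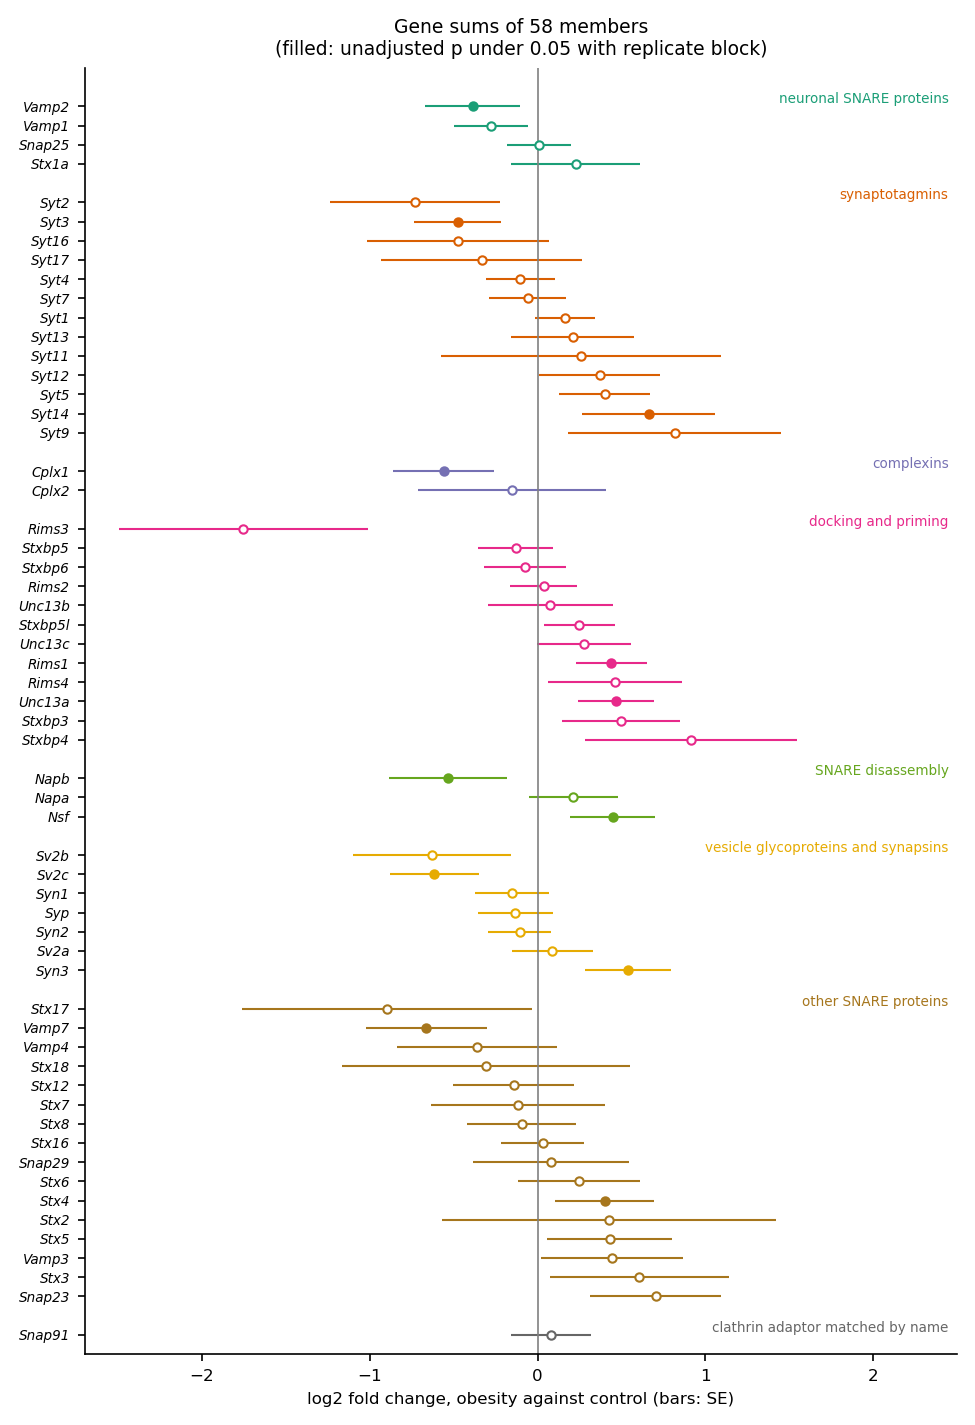
Log2 fold change of the gene sum in obesity against control for 58 of the 60 members (x axis), grouped by role (y axis), with bars for the SE of the edgeR fit and filled points where the fit with the replicate number as a block had an unadjusted p under 0.05. The values lie on both sides of 0 within most roles, and 12 points are filled, 6 on each side.

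Libraries of one number deviated together in both groups, so the number was also fitted as a block. Again 0 of 60 members passed the adjusted threshold (15 of 12255 genes, 0.122%, did). The members at an unadjusted p under 0.05 went from 3 to 12 (20%), against 10.9% of all genes. They were even in direction: Unc13a, Syn3, Rims1, Nsf, Stx4 and Syt14 were higher (10% of members against 5.03% of genes) and Cplx1, Napb, Vamp2, Sv2c, Vamp7 and Syt3 were lower (10% against 5.83%). Obesity library 2 departed from the other obesity libraries for several of these genes, and without it the fit without a block had 11 members under 0.05 (9.96% of genes), 4 higher and 7 lower (backgrounds 4.24% and 5.72%). Mitochondrial sites took 3.85% to 4.34% of reads in obesity libraries 1, 3 and 4, below every control (5.32% to 8.27%), and 6.99% in obesity library 2. The part of this share in the member values was not tested. When both libraries numbered 2 were left out of the block fit, 8 of 60 members (13.3%) passed an adjusted p of 0.1, against 4.63% of genes. Vamp2, Napb, Cplx1, Syt3 and Vamp7 were lower in that fit and Unc13a, Rims1 and Syn3 higher. Leaving out number 1, 3 or 4 gave 0 members, with backgrounds of 0.049%, 0.0163% and 0%. Those calls therefore rest on leaving out one particular pair, a choice made after its values were seen.

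Of the 5 neuronal SNARE genes, 3 were lower and 2 higher in obesity, and none passed the test. Vamp2 had 1516, 1967, 1422 and 1221 reads in controls numbered 1 to 4, and its reads in the obese rats of the same numbers were 1121, 1844, 924 and 784. Obesity libraries 1, 3 and 4 lay below every control, while obesity library 2 lay within the control range in reads and above it in CPM. In CPM, the reads relative to the scaled total of each library, Vamp2 averaged 1091 ± 149 in control rats and 835 ± 445 in obese rats (SD, n = 4). The log2 fold change was -0.39 (SE 0.28) at an edgeR adjusted p of 0.928. With the block it was -0.51 (SE 0.16) at an unadjusted p of 0.00432 and an edgeR adjusted p of 0.214, and without both libraries numbered 2 it was -0.76 (SE 0.14, adjusted p 0.00297). Snap25, the plasma membrane partner that supplies a pair of the helices of the complex, had 1309, 1030, 1320 and 1102 reads in control and 1031, 1082, 1743 and 1277 in obesity. Its log2 fold change was 0.01 (SE 0.19), and the groups overlapped throughout. Stx1a, a syntaxin of the presynaptic membrane, had a log2 fold change of 0.23 (SE 0.38) at 21 to 57 reads per library, and Vamp1, the synaptobrevin most abundant in brainstem and spinal cord, had -0.28 (SE 0.22).

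Complexins bind the assembled SNARE complex and clamp it before calcium arrives. Cplx1 had 375, 939, 552 and 520 reads in control and 185, 521, 547 and 434 in obesity. It was lower in obesity in 4 of 4 numbered pairs, which was so for 9.56% of all genes, although the groups overlapped. Its CPM averaged 423 ± 141 in control rats and 287 ± 114 in obese rats (SD, n = 4). The log2 fold change was -0.56 (SE 0.30) at an edgeR adjusted p of 0.907, and with the block -0.60 (SE 0.15) at an unadjusted p of 0.000415 and an edgeR adjusted p of 0.114, the smallest p among members in that fit. The most 3′ Cplx1 site (chromosome 14, plus strand, 2226578 to 2226617) had 67, 77, 106 and 39 reads in control and 18, 54, 44 and 19 in obesity. Its log2 fold change was -1.21 (SE 0.50, unadjusted p 0.0288 and adjusted p 0.9999 by edgeR), and it held 10.4% of the Cplx1 reads. The Cplx1 site with the most reads (65.0%) had 218, 709, 224 and 400 reads in control and 87, 386, 325 and 298 in obesity. In number 3 its reads were higher in obesity. Cplx2 had 478, 1140, 251 and 340 reads in control and 380, 907, 388 and 230 in obesity, a log2 fold change of -0.15 (SE 0.56). Most of its spread lay between library numbers and not between diets.

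Of the docking and priming genes 9 of 13 were above 0, with a median log2 fold change of 0.25. Unc13a (Munc13-1), the priming factor of most excitatory synapses, had 213, 415, 273 and 360 reads in control and 352, 329, 630 and 550 in obesity. Its CPM averaged 225 ± 55.8 in control rats and 311 ± 57.1 in obese rats (SD, n = 4). That corresponded to a log2 fold change of 0.47 (SE 0.22) at an edgeR adjusted p of 0.904. Obesity libraries 3 and 4 lay above every control, and the others overlapped. Rims1, whose protein tethers vesicles and calcium channels at the active zone, had 279, 356, 267 and 252 reads in control and 497, 268, 417 and 452 in obesity. Its log2 fold change was 0.44 (SE 0.21) at an edgeR adjusted p of 0.904, and obesity library 2 was the one that did not exceed its numbered partner. Rims2 had 0.04 (SE 0.20).

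Other genes of this role showed smaller or less certain differences. Stxbp5 (tomosyn), which competes with synaptobrevin for syntaxin, had a log2 fold change of -0.13 (SE 0.22). Unc13b and Unc13c, the other Munc13 genes of neurons, had 0.08 (SE 0.37) and 0.28 (SE 0.28). Rims3, a short RIM that keeps only the last C2 domain, had 35, 3, 13 and 11 reads in control and 4, 5, 4 and 6 in obesity. Its log2 fold change of -1.75 (SE 0.74) at an unadjusted p of 0.0303 and an edgeR adjusted p of 0.904 rested on few reads, and without control library 1 it was -1.04 with an unadjusted p of 0.238.

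The NSF system showed its members on opposite sides. Nsf, the ATPase that unwinds SNARE complexes, had 73, 154, 104 and 127 reads in control and 110, 154, 211 and 185 in obesity. It was higher in 4 of 4 pairs by CPM, as 9.24% of all genes were, with a log2 fold change of 0.45 (SE 0.25) at an edgeR adjusted p of 0.912. Napb (beta-SNAP), the brain form of its adaptor, had 301, 553, 382 and 308 reads in control and 255, 451, 204 and 146 in obesity. That was a log2 fold change of -0.54 (SE 0.35) at an edgeR adjusted p of 0.927, and with the block -0.68 (SE 0.20) at an unadjusted p of 0.00238 and an edgeR adjusted p of 0.191. Obesity library 2 again stood at the control level. Napa (alpha-SNAP), the form of all tissues, had 0.21 (SE 0.26). The opposite signs of Nsf and Napb were not tested against each other.

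**Figure D2:**
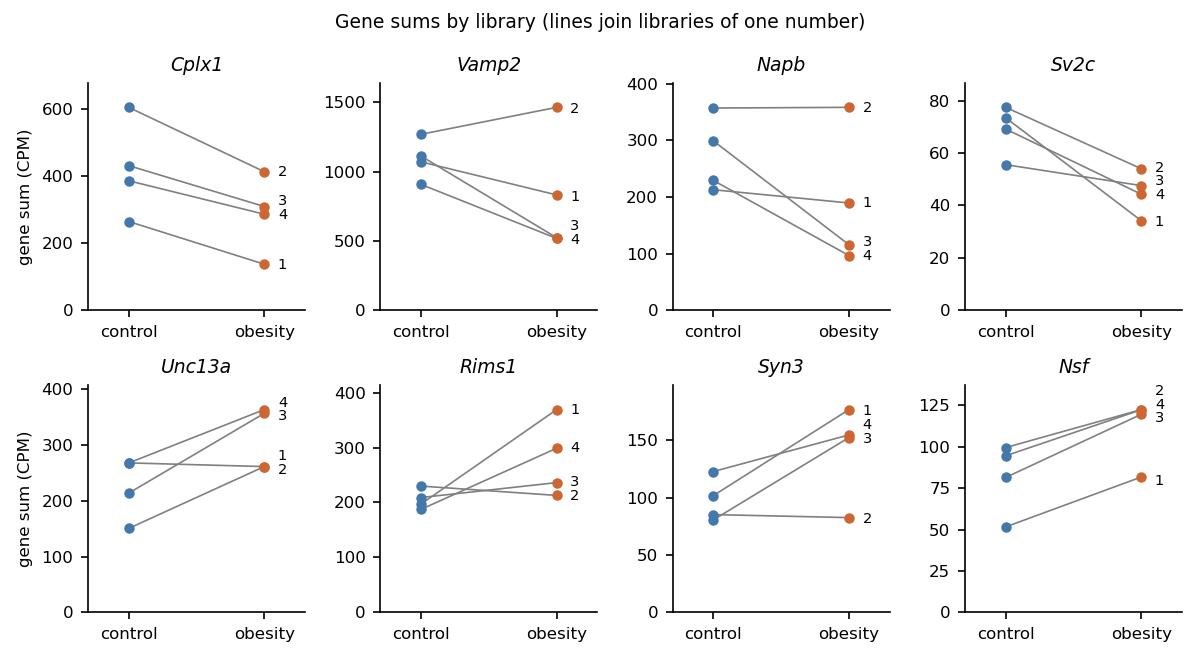
Gene sums in CPM (y axis, from 0) for 8 members in control and obesity (x axis), with lines that join libraries of one number, printed beside the obesity points. Cplx1 and Sv2c are lower in obesity in 4 of 4 pairs and Nsf is higher in 4 of 4, while the lines numbered 2 of Vamp2, Napb, Unc13a, Rims1 and Syn3 are flat or run against the other lines.

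The synaptotagmins were split in direction, with 7 of 13 above 0 and 6 below. Syt1, the sensor for fast synchronous release, had 912, 1173, 859 and 1011 reads in control and 1237, 930, 1225 and 1230 in obesity. Its level was 707 ± 56.8 CPM against 791 ± 98.2 (SD, n = 4), and the log2 difference was 0.16 (SE 0.18). Syt2, the fast sensor of hindbrain and neuromuscular synapses, had -0.73 (SE 0.50), and was lower in 4 of 4 pairs. Library 1 was the highest of its group in both groups, with 101 reads against 19 to 45 in the other controls and 57 against 18 to 25 in the other obese rats. Syt4, found on peptide-containing vesicles in the neurohypophysis, had -0.10 (SE 0.20) and Syt7, a slow high-affinity calcium sensor, had -0.06 (SE 0.23). Syt3, a high-affinity calcium sensor, had 198, 142, 250 and 150 reads in control and 131, 154, 166 and 112 in obesity, a log2 fold change of -0.47 (SE 0.26), and Syt14, which lacks calcium binding, had 0.66 (SE 0.40). Syt14 was higher in 4 of 4 pairs, but 123 of its 437 reads lay on the opposite strand and its majority-strand value was 0.38.

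Vesicle glycoproteins and synapsins held the 2 members with the smallest p beside Rims3. Sv2c, a vesicle glycoprotein enriched in basal ganglia and other subcortical regions, had 104, 120, 71 and 93 reads in control and 46, 68, 84 and 67 in obesity. In CPM every obesity library lay below every control library, at 45.0 ± 8.29 against 68.9 ± 9.53 (SD, n = 4). It was the only member whose groups did not overlap (1 of 60 lower and 0 higher, against 1.67% and 1.84% of all genes). The log2 fold change was -0.62 (SE 0.26) at an unadjusted p of 0.0316 and an edgeR adjusted p of 0.904, and the unadjusted p reached 0.0836 without obesity library 1. Of the Sv2c reads, 50.2% lay at one site 154409 bases before its most 3′ site (chromosome 2, minus strand, 26650174 to 26650183), with 64, 80, 18 and 76 reads in control and 11, 36, 8 and 35 in obesity. The relatives Sv2a, the target of levetiracetam, and Sv2b had 0.09 (SE 0.24) and -0.63 (SE 0.47), the latter at 11 to 37 reads per library.

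Syn3, the synapsin most tied to developing neurons, had 144, 132, 103 and 165 reads in control and 238, 104, 269 and 234 in obesity. Obesity libraries 1, 3 and 4 exceeded every control and obesity library 2 lay in the control range. The log2 fold change was 0.54 (SE 0.26) at an unadjusted p of 0.0495 and an edgeR adjusted p of 0.904, and the unadjusted p reached 0.137 without obesity library 1. Of its 1389 reads, 438 were on the opposite strand, and without those the value was 0.91. Syn1 and Syn2, which tether the reserve pool of vesicles to actin, had -0.16 (SE 0.22) and -0.11 (SE 0.19). Syp (synaptophysin), the classical vesicle marker, had 586, 667, 533 and 436 reads in control and 595, 589, 438 and 439 in obesity, a log2 fold change of -0.13 (SE 0.22).

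The 16 other SNARE genes, whose proteins serve the Golgi, endosomes, lysosomes and the non-synaptic plasma membrane, were above 0 in 9 cases and below 0 in 7. None had an unadjusted p under 0.05 without the block. Vamp7, a vesicle SNARE of late endosomes, had 65, 51, 66 and 91 reads in control and 24, 65, 60 and 33 in obesity, a log2 fold change of -0.66 (SE 0.36). Stx4, the plasma membrane syntaxin of regulated insertion of transporters, had 125, 188, 136 and 263 reads in control and 157, 243, 201 and 382 in obesity. It was higher in 4 of 4 pairs, with a log2 fold change of 0.40 (SE 0.30). Snap23, the relative of Snap25 in cells other than neurons, was higher in 4 of 4 pairs as well, at 0.70 (SE 0.39) and 14 to 47 reads per library. The clathrin adaptor Snap91 had 0.08 (SE 0.24).

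As shares of gene reads, docking and priming genes took 0.132% ± 0.00792 among controls and 0.150% ± 0.0143 among obese rats (SD, n = 4). These groups overlapped, and obesity library 2 (0.132%) lay below its numbered control (0.138%). The neuronal SNARE genes took 0.296% ± 0.0352 and 0.260% ± 0.0453, and obesity library 2 was the one above its numbered control. Complexins took 0.0806% ± 0.0360 and 0.0627% ± 0.0330, lower in 4 of 4 pairs with the groups overlapping. Vesicle glycoproteins and synapsins took 0.134% ± 0.00657 and 0.126% ± 0.00666, again with overlap. No test was made on these shares.

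Marker genes of cell types were also compared. Of 7 general neuronal markers measured, 6 were lower in obesity (median log2 fold change -0.15), and their summed level was 5163 to 8080 CPM in control and 4251 to 7041 in obesity. Stmn2 was the one with an unadjusted p under 0.05 (log2 fold change -0.61, edgeR p 0.0205), and Eno2 was not analysed here. Of the oligodendrocyte markers 11 of 12 were below 0, at a summed 17478 to 22388 CPM in control and 13621 to 21146 in obesity. Of the astrocyte markers 6 of 9 were below 0, at 3567 to 4634 and 2657 to 4027 CPM, and the 4 microglial markers measured summed to 89.0 to 127 and 38.6 to 113 CPM. Of the hypothalamic markers 5 of 8 were below 0, and their sum did not overlap between the groups, at 1061 to 1484 CPM in control and 849 to 1058 in obesity. Avp, the vasopressin gene, made up most of that sum, with a mean of 952 CPM among controls and 702 among obese rats. Avp, Oxt and Sst were each lower without overlap, at log2 fold changes of -0.44, -0.74 and -1.36, and Sim1 was higher in 4 of 4 pairs (1.15, unadjusted p 0.0379 by edgeR). Over all genes, 1.67% were lower without overlap and 1.84% higher. In the other marker lists Mal, of oligodendrocytes, was also lower without overlap (-0.42). Mal, Aldoc (-0.53) and Csf1r (-0.80) were lower at an unadjusted p under 0.05 by edgeR, and Gh1 was higher through obesity library 2 alone. None of the markers passed the adjusted threshold. Markers of the anterior pituitary (3 measured) summed to 17.2 to 55.8 and 5.95 to 124 CPM, the highest in obesity library 2 (87 reads of Gh1 and 58 of Lhb), and Ttr, the one choroid plexus marker measured, had at most 1.49 CPM in control and 95.2 CPM in obesity library 4. As the lowest site total was 30 reads, a marker in the table could not be at 0 in every library. The part of cell composition in the member values was not tested.

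**Figure D3:**
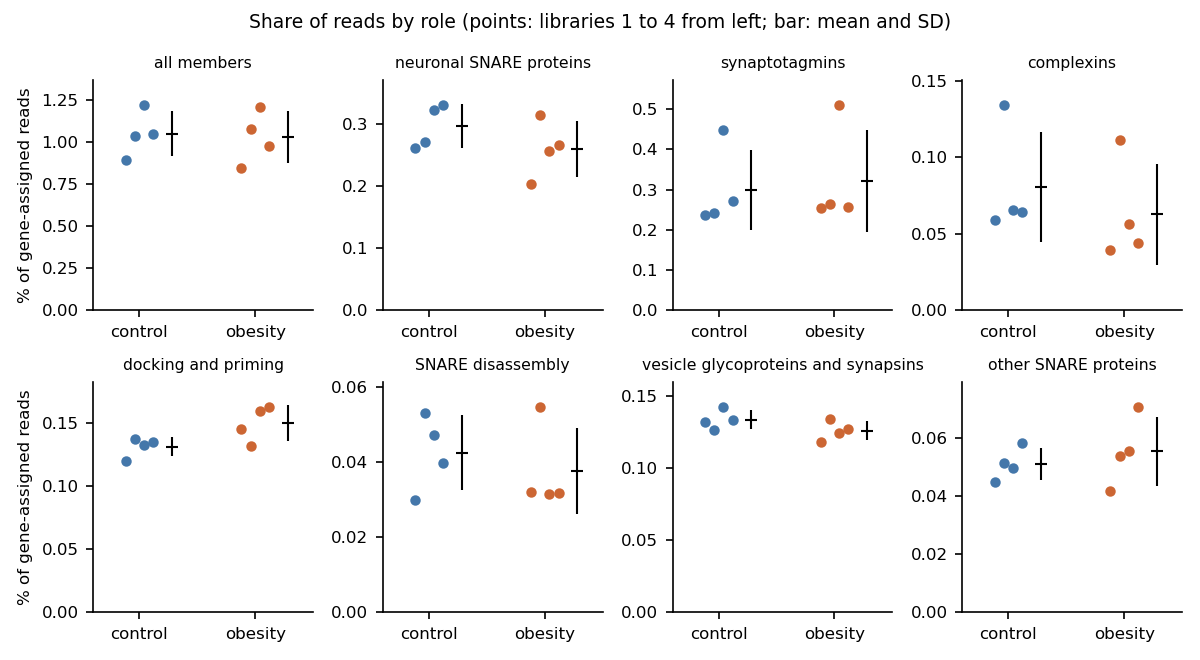
Share of gene-assigned reads (y axis, percent, from 0) taken by all members and by each of 7 roles in the 4 control and 4 obesity libraries (x axis, libraries 1 to 4 from the left), with bars for the mean and SD. The mean docking and priming share was 0.132% in control and 0.150% in obesity, with the groups overlapping. The complexin and synaptotagmin panels each show one high library per group, number 2 and number 3.

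Some abundant members varied far more between library numbers than between diets. Syt11 had 608, 828, 2808 and 925 reads in control and 573, 766, 5261 and 885 in obesity, so number 3 was highest in both groups. Nearly all of this came from one site (chromosome 2, minus strand, 188112430 to 188112484), with 211, 446, 2533 and 542 reads in control and 102, 456, 4839 and 499 in obesity, while the remaining 18 Syt11 sites together held 275 to 471 reads in every library. The log2 fold change of Syt11 was 0.26 (SE 0.83) and ran from -0.84 to 1.06 as single libraries were left out.

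In Cplx2 the swing lay with number 2, at a site with 315, 1003, 117 and 252 reads in control and 231, 809, 135 and 153 in obesity (chromosome 17, minus strand, 10758710 to 10758745). Small sites behaved likewise: one on the strand opposite to Vamp2 (chromosome 10, minus strand, 55678368 to 55678371) had 1, 257, 0 and 16 reads in control and 3, 250, 2 and 3 in obesity. The most 3′ site of Syt13, a synaptotagmin without calcium binding, had 0, 67, 2 and 0 reads in control and 0, 56, 0 and 4 in obesity. The library of one number was the highest of its group in both groups for 31 of 60 members (51.7%), against 39.0% of all genes. The labels do not say what libraries of one number share.

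**Figure D4:**
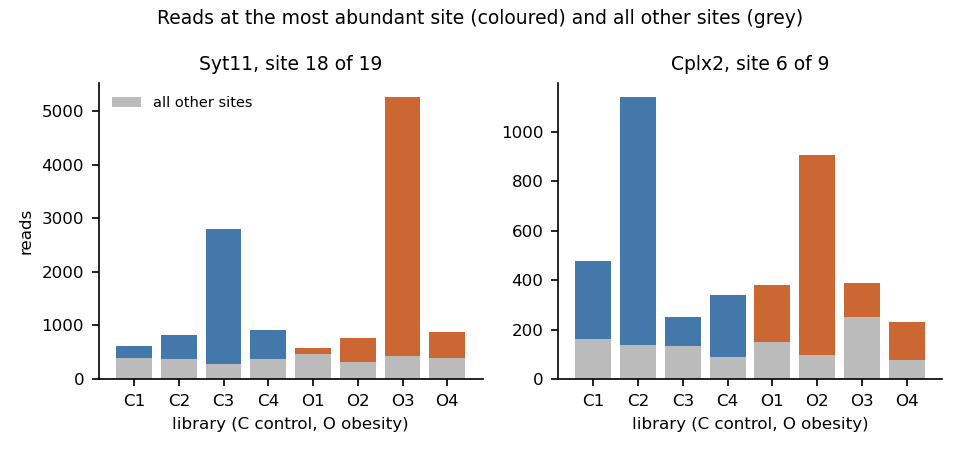
Reads (y axis, from 0) at the most abundant site (coloured) and at all other sites together (grey) of Syt11 and Cplx2 in control libraries C1 to C4 and obesity libraries O1 to O4 (x axis). The coloured part is highest in both libraries numbered 3 for Syt11 and numbered 2 for Cplx2, with the grey part of Syt11 between 275 and 471 reads.

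The next question was whether single sites differed. Of the 605 member sites, 0 passed an adjusted p of 0.1 by edgeR (0.00135% of 73922 sites did), and 24 (3.97%) had an unadjusted p under 0.05 against 3.14% of all sites. Of these 24, 13 were higher and 11 lower (backgrounds 1.72% and 1.41%), in 20 genes. By the DESeq2 Wald test 0 sites passed and 30 of the 598 with a p lay under that level (5.02%, against 3.86% of all sites). The groups did not overlap at 10 higher and 11 lower sites (backgrounds 1.43% and 1.69%). With the block 0 passed (0.00541% of all sites did) and 48 (7.93%) were under 0.05, against 6.09% of all sites. Of these, 25 were higher and 23 lower (backgrounds 2.79% and 3.31%). Sites with a mean of at least 10 reads were named where the edgeR unadjusted p was under 0.05 and the groups did not overlap in CPM. Lack of overlap at the sites named next was therefore set by that choice and is not a result. Among them, a site of Rims4, another short RIM, (chromosome 3, minus strand, 160280287 to 160280291) had 3, 9, 8 and 3 reads in control and 23, 9, 17 and 22 in obesity, a log2 fold change of 1.44 (SE 0.64). The most 3′ Stxbp5 site (chromosome 1, minus strand, 3859677 to 3859694) had 37, 34, 27 and 30 reads in control and 11, 8, 32 and 18 in obesity, and -1.06 (SE 0.47). A Snap25 site 6182 bases before its most 3′ site (chromosome 3, plus strand, 129782228 to 129782239) had 23, 30, 21 and 16 reads in control and 10, 12, 14 and 11 in obesity. The named site with the smallest p, at the Golgi syntaxin Stx5, lay on the strand opposite to most Stx5 reads (chromosome 1, minus strand, 224943699 to 224943720), with 3, 3, 4 and 4 reads in control and 8, 9, 23 and 32 in obesity. Without that site the log2 fold change of Stx5 was -0.06 in place of 0.43.

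Leaving both libraries numbered 2 out of the block fit gave 7 member sites with an adjusted p under 0.1 (0.495% of all sites passed). They were the most 3′ sites of Vamp2, Cplx1 and Syp, 1 site each of Syn2, Sv2c and Napb, all lower, and a Rims1 site that was higher. The most 3′ Syp site (chromosome X, minus strand, 15694696 to 15694726) had 307, 225, 237 and 176 reads in control and 149, 210, 111 and 123 in obesity. The most 3′ Vamp2 site had 1462, 1587, 1335 and 1149 reads in control and 1015, 1447, 809 and 728 in obesity. Leaving out number 4 in place of 2 gave 1 member site (0.023% of all sites), and leaving out 1 or 3 gave 0 (0.00541% and 0.0365%). The site called without number 4 lay on the strand opposite to most Syt7 reads (chromosome 1, 226494384 to 226494388), so its reads cannot be assigned to Syt7 with certainty.

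Use of sites within a gene was compared over the 58 members with 2 or more sites. None passed an adjusted p of 0.1 by edgeR (0.0121% of 8276 genes did), and 1 member had an unadjusted p under 0.05, against 1.82% of genes. This was Syt7 (Simes p 0.00401, adjusted p 1.00), where a site on the opposite strand (chromosome 1, minus strand, 226494384 to 226494388) had 26, 2, 9 and 20 reads in control and 365, 4, 42 and 19 in obesity. Obesity library 1 held most of these reads. The main Syt7 site on the gene's own strand had 447, 482, 408 and 326 reads in control and 273, 415, 320 and 270 in obesity, and the log2 fold change of the gene without the opposite-strand site was -0.33. In the same fit the next smallest values were those of Rims1 (Simes p 0.0716) and Napa (0.101). With the block 6 members (10.3%) were under 0.05, against 3.11% of genes, and 0 passed. The smallest there was Rims1 (Simes p 0.0089), followed by Syt7.

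Among reads on the strand that held most of a gene's reads, the share at its most 3′ site was lower in obesity over the members. This covered 52 members with 2 or more sites on that strand and at least 5 reads there in every library. Their mean share per library was 33.9%, 32.8%, 32.3% and 32.3% in control and 29.2%, 30.9%, 29.7% and 28.7% in obesity. Every obesity library lay below every control library, at 29.6% ± 0.932 against 32.8% ± 0.761 (SD, n = 4), a difference of -3.19 percentage points. The measure was chosen after the data were seen, and no test was made over the members. Over all 6942 genes treated alike the means were 28.5% ± 1.70 and 30.9% ± 1.27, a difference of -2.39, so the whole table differed in the same direction. The median difference per gene was -1.10 percentage points over the members and -1.48 over all genes. With at least 20 reads (39 members) the groups overlapped, at 28.7% to 31.0% among controls and 25.5% to 29.6% among obese rats, with a mean difference of -2.78. The library medians of the 52 members overlapped as well, at 19.9% to 26.1% and 17.6% to 22.2%. The share was lower in 34 of 52 members (65.4%) and in 62.5% of all genes. Single members rarely separated: the groups did not overlap for 1 member (1.92%, against 2.72% of genes), Snap91. The share of its majority-strand reads at the most 3′ site was 67.3%, 64.9%, 63.5% and 63.1% in control and 55.7%, 62.7%, 36.7% and 27.4% in obesity. However, 486 of the 1770 Snap91 reads lay on the opposite strand. As a share of all Snap91 reads the groups overlapped, at 59.2%, 47.2%, 53.3% and 46.9% in control and 35.6%, 50.8%, 23.7% and 17.6% in obesity. For Syp the mean was 42.7% ± 7.81 among controls and 28.5% ± 4.94 among obese rats (SD, n = 4), while for Snap25 the means were 76.8% ± 3.06 and 75.8% ± 3.36.

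**Figure D5:**
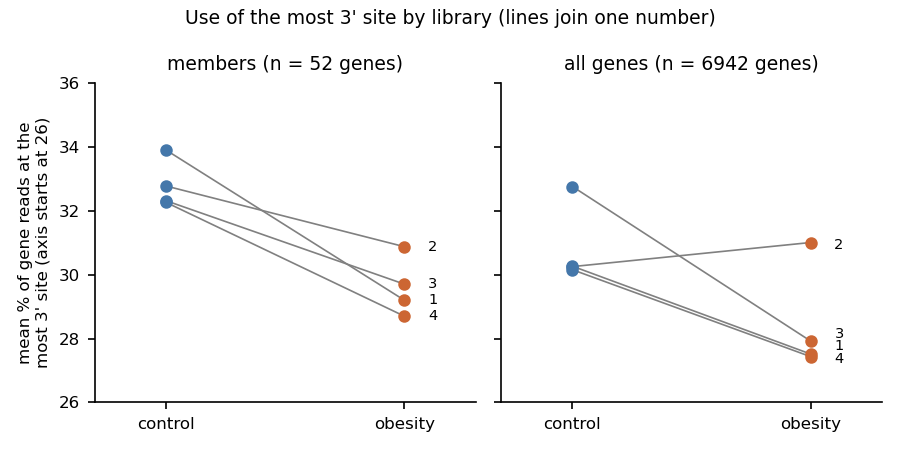
Mean percent of a gene's majority-strand reads at its most 3′ site (y axis, starting at 26) in each library of control and obesity (x axis), for 52 members and for 6942 genes, with lines that join libraries of one number. The members are lower in obesity in 4 of 4 pairs, and over all genes the share is lower in pairs 1, 3 and 4 while the obesity library numbered 2 stands at 31.0%.

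Beside the fusion machinery, 41 other presynaptic genes of the active zone and of endocytosis were followed. None passed an adjusted p of 0.1 by edgeR. At an unadjusted p under 0.05, 2 were higher and 0 lower (2.77% and 2.52% of all genes), and 27 of 41 were above 0, with a median log2 fold change of 0.10. Cadps (CAPS-1), which primes dense core vesicles for fusion, had 350, 428, 319 and 433 reads in control and 573, 449, 670 and 719 in obesity. Its log2 fold change was 0.58 (SE 0.19) at an unadjusted p of 0.00739 and an edgeR adjusted p of 0.904. The CPM of Cadps and of Dnm3 did not overlap between the groups (2 of 41 higher and 0 lower, against 1.84% and 1.67% of all genes). Ap2a1, a subunit of the clathrin adaptor AP-2, had 0.55 (SE 0.21, unadjusted p 0.0192). Cadps and Ap2a1 were higher in 4 of 4 pairs. Of the 41, 8 were higher and 5 lower in 4 of 4, where 9.24% and 9.56% of all genes were. With the block, 5 of the 41 were higher at an unadjusted p under 0.05 (Cadps, Ap2a1, Dnm2, Dnm3 and Erc2) and 2 were lower (Cltc and Ppfia4), where 5.03% and 5.83% of all genes were, and 0 passed the adjusted threshold.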

How the data were processed

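Per the labels, WTTS-seq libraries were made from hypothalamic total RNA of 8 rats, 4 per group. The authors deposited one table of unscaled read counts, with a row for each polyadenylation site. The submitters' processing notes name Bowtie2 2.2.3 and Rnor_6.0, and how reads were clustered into sites is not given in the sources used here. The lowest site total was 30 reads. A line without a site (total 1710888) was left out. The paper linked to the series describes another exposure, so groups come from the labels alone.

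Site counts, gene sums and site usage (diffSpliceDGE, Simes p) were tested over the whole table with edgeR 4.0.16 (robust quasi-likelihood test, TMM) in R 4.3.3, with Benjamini-Hochberg adjustment and a threshold of 0.1. Alternatives were a replicate block, DESeq2 1.42.0, low-count filters, the majority strand and leaving out libraries. The code was tested on simulated data. Numbers were taken to pair libraries, since deviations of log2 CPM from group means correlated at 0.253 to 0.375 between same-numbered libraries (9407 genes) and at -0.21 to 0.0818 between others. Over 57 members the values were 0.176 to 0.549 and -0.356 to 0.147. Number 2 was the lowest there (0.176), little above control library 2 with obesity library 1 (0.147). Amplified reads carry no molecular identifiers.

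Named are the release core by role, members with the smallest unadjusted p under 0.05 (mean of at least 10 reads), the 3 smallest usage values, the most abundant of each family and members with a library that stands apart. Sites named by p had to meet the same limits and also to have groups that did not overlap in CPM. Vamp7, Stx4, Snap23, Stx2, Stx18, Syt3, Syt4, Syt14, Snap91, the sites shown for library swings and the calls without number 2 were chosen after their values were seen. A few members are counted in the totals but not reported here by name. Members and lists were chosen with earlier results of these data known.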

Additional observations from a re-analysis of the deposited data

Results flagged for a closer look

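In 17 of 148 groups of 4 libraries checked, the highest or lowest library stood apart from the other 3 by Dixon's criterion, where chance alone gives about 1 in 20. Of these, 12 were among 116 checks of gene sums. In control, the library that stood apart had a gene sum of 30.3 CPM for Vamp3 (library 2, high), 43.8 for Napa (library 1, low), 324.3 for Syp (library 4, low), 65.8 for Syt13 (library 2, high), 50.9 for Stx12 (library 1, high) and 2198 for Syt11 (library 3, high). In obesity it was 81.7 CPM for Nsf (library 1, low), 42.3 for Syt2 (library 1, high), 8.74 for Stx17 (library 2, high), 74.7 for Syt13 (library 2, high), 2979 for Syt11 (library 3, high) and 370.4 for Rims2 (library 3, high). Syt11 and Syt13 were high in the same-numbered library of both groups.

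Among shares of gene reads, control library 1 was low for all members without Syt11 (0.852%), obesity library 2 was high for the disassembly genes (0.0548%), and control library 2 was high for the complexins (0.134%). The synaptotagmins were high in control library 3 (0.447%) and obesity library 3 (0.511%), both through Syt11.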

How the results depend on the processing

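No member passed the adjusted threshold for gene sums, sites or site usage under the alternatives fixed with the design. With the replicate number as a block and both libraries numbered 2 left out (a choice made after the data were seen), 8 genes and 7 sites passed. With number 4 left out 1 site passed, on the strand opposite to most Syt7 reads. The count of members at an unadjusted p under 0.05, 3 as reported, was 12 with the block (10.9% of all genes), 12 with the block on the majority strand (10.9%), 5, 14, 7 and 5 with the block as numbers 1 to 4 were left out in turn (7.87%, 15.1%, 6.90% and 6.81%), and 1 to 11 as single libraries were left out, the highest without obesity library 2 (1221 of all genes, 9.96%). Without single libraries 3.50% to 9.96% of all genes lay under that level. For sites the count of 24 became 48 with the block (6.09% of all sites), 54 with the block without number 2 (7.46%) and 15 with filterByExpr (6.61% of 227, against 4.52%). It was 16 to 47 as single libraries were left out (2.75% to 5.52% of all sites), the highest again without obesity library 2. For site usage the count of 1 became 6 with the block (3.11% of all genes tested) and 2 with a mean of at least 10 reads (5% of 40, against 1.58% of 4054 genes). It was 1 to 3 without single libraries (1.90% to 4.46% of all genes tested). The difference in the members' share of gene reads, -0.0218 percentage points, ranged from -0.0827 to 0.0385 without single libraries. The cause of these shifts was not tested.

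Of 37 named genes and sites, 25 kept the sign of the log2 fold change under every alternative. Stx5 turned to -0.061 on the majority strand and to -0.14 there with the block. In block fits without a number, signs turned for Stx12 (0.21, without 1), Snap25 (-0.11) and Sv2a (-0.046, both without 2), Rims2 (-0.013), Stxbp5 (0.0062), Syp (0.022), Syt11 (-0.018) and Syt7 (0.029, all without 3), and Rims2 (-0.0096, without 4). Without single libraries the ranges that crossed 0 were -0.82 to 0.39 for Cplx2, -0.076 to 0.14 for Rims2, -0.10 to 0.11 for Snap25, -0.48 to 0.068 for Stx12, -0.28 to 0.0084 for Stxbp5, -0.047 to 0.23 for Sv2a, -0.055 to 0.23 for Unc13b, -0.30 to 0.0095 for Syp, -0.84 to 1.06 for Syt11, -0.15 to 0.59 for Syt13 and -0.30 to 0.081 for Syt7.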
